A study of Zea mays with 12 samples.

Results

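Seeds of the maize *zmmsh7-2* mutant were compared at 14 and 7 days after pollination (DAP) by RNA-seq, with 3 libraries at each stage, or 6 of the 12 libraries of the series. They were chosen by the genotype and stage in the labels. The 4 groups were *zmmsh7-2* seeds at 14 DAP, *zmmsh7-2* seeds at 7 DAP, wild-type seeds at 14 DAP and wild-type seeds at 7 DAP, and the wild-type groups serve only to show where the mutant's stage change differed. The labels describe *zmmsh7-2* as an MSH7 knockout and the sample titles mark it as made by CRISPR. It is a single allele, and neither the inbred background nor the number of ears or seeds behind a library is stated in the labels. Separate plants or ears are not mentioned for the replicates in the labels. The p-values therefore set a difference only against the variation between these libraries, which may be technical.

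The protein MSH7 belongs to the MutS family of DNA mismatch recognition proteins and is found in plants. In the interval studied, a maize kernel passes from early endosperm and embryo formation into grain filling, when endosperm cells load starch and storage proteins and the embryo builds its organs. Mitochondria and plastids keep small genomes of their own, which encode ribosomal and transfer RNAs, a part of the respiratory and photosynthetic complexes and some of the ribosomal proteins. The mitochondria supply the energy of the growing seed, and the plastids of the endosperm become the starch-storing amyloplasts.

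Library totals were 16854595 to 20575609 counts in mutant seeds at 14 DAP and 17502108 to 20441974 counts in mutant seeds at 7 DAP. Wild-type libraries held 20066289 to 21932590 counts at 14 DAP and 19741682 to 20865544 counts at 7 DAP. The biological coefficient of variation between the mutant replicates was 2.86%, so changes well below 2-fold passed the test. Each stage was deposited as a table of its own, so a batch between the tables and the stage cannot be told apart. A whole seed is a bulk sample, in which fewer cells of a type and less RNA per cell cannot be told apart. Of the identifiers counted, 44146 were nuclear gene models, for which the reference table used here gave 0 symbols, so MSH7 and the tissue markers of the seed were not analysed here. The 365 organelle genes all had symbols, and the results by name are therefore about them.

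The first question was which organelle transcripts changed between the stages in mutant seeds. Transcripts of both organelles were higher at 14 DAP where they were called, by 1.66-fold for the most abundant one, rrn26, and by 13.9-fold for the plastid matK. Of the 365 organelle genes, 118 had at least 1 count in the mutant libraries, 110 of them at 14 DAP and 53 at 7 DAP. The filter on low counts left 16, of which 14 were higher at 14 DAP, 0 were lower and 2 were not called (edgeR quasi-likelihood test, Benjamini-Hochberg adjusted p below 0.05 over all 24241 genes tested). Over all genes tested, 40.3% were called higher and 40.5% lower. Since 11 of the 16 would not have passed the filter on the 7 DAP libraries alone, a rise helped to decide which were tested, and the split supports nothing by itself. Without a filter, 25 of 118 were higher and 0 lower, and scaling by library totals alone gave 12 of 16 higher and 1 lower.

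The mitochondrial ribosomal RNAs form the core of the organelle's own ribosomes. In these libraries they were the most counted organelle transcripts and passed the filter at both stages. All organelle transcripts together made up only 0.0234% of counts at 14 DAP and 0.0157% at 7 DAP in the mutant. How far the counts of these RNAs follow their levels in the seed was not tested. The large-subunit RNA rrn26 (ZeamMr002) had 191, 178.5 and 183.6 CPM (counts scaled to library size and TMM composition factors) in the mutant libraries at 14 DAP, against 115, 109 and 108.5 CPM in those at 7 DAP. The small-subunit RNA rrn18 (ZeamMr004) averaged 31.4 ± 0.388 CPM in mutant seeds at 14 DAP and 18.4 ± 1.15 CPM in mutant seeds at 7 DAP (SD, n = 3 each). All 14 DAP libraries lay above all 7 DAP libraries for both RNAs, as they did for 40.5% of all genes tested. The log2 fold change of rrn26 was 0.73 (SE 0.03, edgeR adjusted p = 7.73e-59) and that of rrn18 was 0.77 (SE 0.07, edgeR adjusted p = 1.02e-23). The changes of the pair were thus close in size in the mutant. With library totals as the only scaling the median of all genes was −0.30 on the log2 scale, against −0.01 with TMM factors, so each of these changes is relative to the composition of the library.

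**Figure D1:**
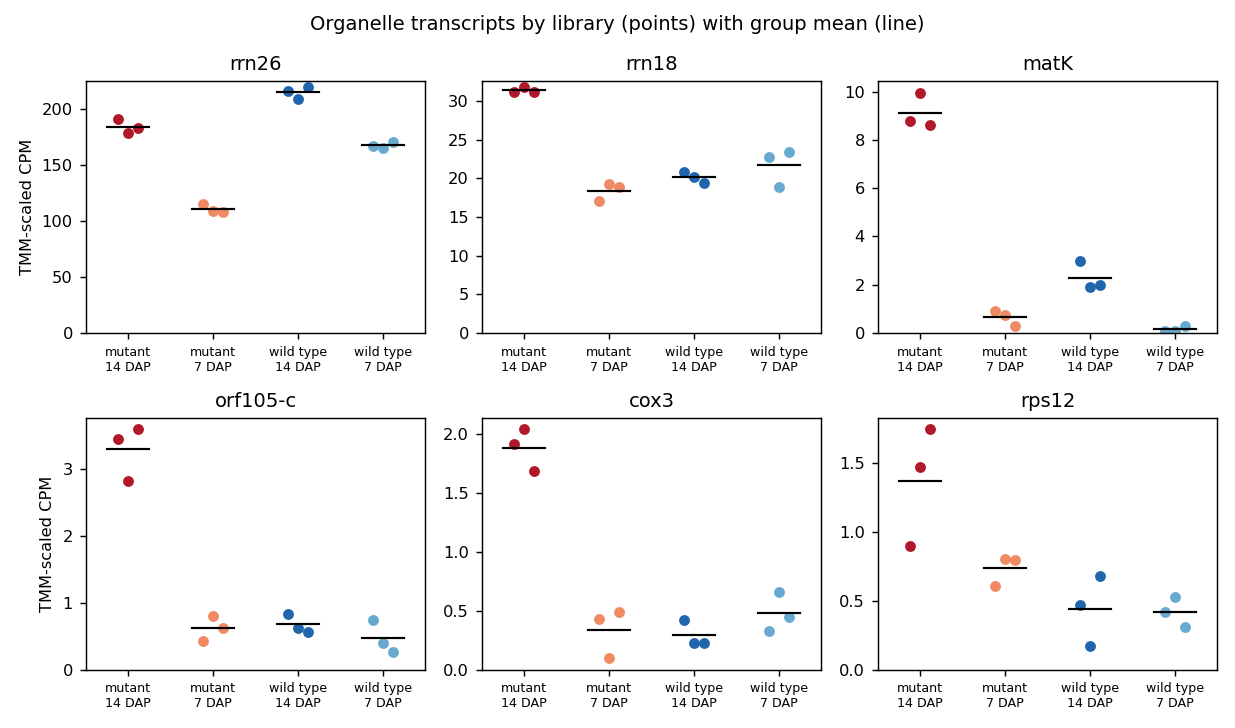
Scaled CPM of named organelle transcripts (vertical axis, linear, one panel per gene) in each library of mutant seeds at 14 and 7 DAP and wild-type seeds at 14 and 7 DAP; each point is 1 library and the bar is the group mean. For rrn18 the mutant libraries at 14 DAP average 31.4 CPM, above the 18.4 CPM of mutant seeds at 7 DAP, whereas wild type averages 20.1 CPM at 14 DAP and 21.7 CPM at 7 DAP.

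Mitochondrial transcripts for the respiratory chain had few counts, which were also higher in sum at 14 DAP in the mutant. The list of respiratory chain and cytochrome c maturation genes had 20 members, of which 4 were tested, 3 were higher and 1, atp4, was not called. Over all genes tested, 40.3% were higher and 40.5% lower. Of the 4 respiratory genes tested, 3 would not have passed the filter on the 7 DAP libraries alone. Over all 20 members and with no filter, the mutant libraries held 116, 124 and 135 counts at 14 DAP, against 52, 65 and 51 counts at 7 DAP. cox3 (ZeamMp161), a subunit of cytochrome c oxidase, had 30, 39 and 31 counts in the mutant libraries at 14 DAP and 10, 2 and 11 counts in those at 7 DAP. The stages did not overlap, and the log2 fold change was 2.41 (SE 0.36, edgeR adjusted p = 3.83e-10). cox1 (ZeamMp136), the catalytic core subunit of the same enzyme, had 23, 17 and 25 counts at 14 DAP and 10, 9 and 3 counts at 7 DAP in the mutant, a log2 fold change of 1.86 (SE 0.40, edgeR adjusted p = 1.08e-05). nad4 (ZeamMp032), which encodes part of respiratory complex I, had 13, 16 and 17 counts in mutant seeds at 14 DAP and 3, 15 and 4 counts in mutant seeds at 7 DAP. Its second 7 DAP library stood close to the 14 DAP level, and the log2 fold change of 1.35 (SE 0.44, edgeR adjusted p = 0.00351) was 2.45 without that library. Without replicate 1 at 7 DAP the call of nad4 was lost (0.93, edgeR adjusted p = 0.067). atp4 (ZeamMp051), a subunit of the ATP synthase, had 10, 21 and 20 counts at 14 DAP and 13, 20 and 15 counts at 7 DAP in the mutant, with overlapping stages (log2 fold change 0.38, SE 0.36, edgeR adjusted p = 0.317).

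Among the 10 mitochondrial ribosomal protein and maturase genes 1 was tested, rps12 (ZeamMp092), a protein of the small ribosomal subunit, and it was higher at 14 DAP in the mutant with a log2 fold change of 0.92 (SE 0.33, edgeR adjusted p = 0.00746). That call was lost without replicate 3 of the mutant at 14 DAP (0.71, edgeR adjusted p = 0.0861) and with library totals only. The 10 genes summed to 155 counts in the mutant at 14 DAP and 79 counts in the mutant at 7 DAP. The list of mitochondrial reading frames without an assigned function had 138 members, and 4 of the 5 tested were higher in the mutant at 14 DAP, where 40.3% of all genes tested were higher. Of these 5, 4 would not have passed the filter on the 7 DAP libraries alone. orf105-c (ZeamMp073) had 54, 54 and 66 counts in mutant libraries at 14 DAP against 10, 16 and 14 counts at 7 DAP, a clear separation of the stages with a log2 fold change of 2.42 (SE 0.27). orf140-b and orf147-b had log2 fold changes of 2.93 and 2.02, from 39 and 37 counts over the 3 mutant libraries at 14 DAP. For orf140-b the change was 3.79 without replicate 1 of the mutant at 7 DAP. The weakest call, orf101-a (log2 fold change 0.93, edgeR adjusted p = 0.0364), was lost with library totals only, with no filter, with DESeq2, in the fit of 12 libraries and without replicate 3 of the mutant at 14 DAP or replicate 1 or 3 at 7 DAP. orf126-c (ZeamMp075) had 28, 38 and 25 counts in the mutant at 14 DAP and 44, 47 and 40 counts at 7 DAP, which overlapped once scaled (log2 fold change −0.22, SE 0.24, edgeR adjusted p = 0.403). It was the gene called lower with library totals only (−0.51, edgeR adjusted p = 0.0462).

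Plastid counts were low in the mutant libraries at both stages, and far lower at 7 DAP. How far counts of organelle genes follow their levels in the seed was not tested. All 157 plastid genes together had 245, 326 and 283 counts in the mutant libraries at 14 DAP, against 30, 27 and 12 counts in those at 7 DAP. Per 100 mitochondrial counts, a measure that does not depend on library scaling, there were 6.82 ± 0.537 plastid counts in mutant seeds at 14 DAP and 0.769 ± 0.326 in mutant seeds at 7 DAP (SD, n = 3 per stage; exact two-sided permutation p = 0.1, the lowest value that 3 against 3 libraries can give). The stages were fully separated on this measure. The intron maturase gene matK (ZemaCp003) held 485 of the 854 plastid counts of the mutant at 14 DAP and 43 of the 69 at 7 DAP. Scaled, it had 8.77, 9.95 and 8.62 CPM in the mutant libraries at 14 DAP against 0.907, 0.754 and 0.310 CPM in those at 7 DAP, a log2 fold change of 3.79 (SE 0.20, edgeR adjusted p = 3.48e-44). The matK reading frame lies inside the intron of the lysine transfer RNA gene trnK, so reads of these overlapping genes may not be separable and both values are uncertain in their split.

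The other plastid genes tested were read from very few counts at 7 DAP. All 4 plastid genes tested, matK among them, would not have passed the filter on the 7 DAP libraries alone. That all 4 were higher at 14 DAP therefore supports nothing by itself. trnK (ZemaCt121) had 16, 22 and 12 counts in mutant seeds at 14 DAP and 0, 2 and 0 counts at 7 DAP, a ratio of scaled abundance of 30.9 (95% counting interval 8.12 to 262). Its fitted log2 fold change of 4.69 was 7.23 without replicate 2 of the mutant at 7 DAP, the library that holds both counts. ndhA (ZemaCp091), a subunit of the plastid NAD(P)H dehydrogenase, had 21, 19 and 16 counts in the mutant at 14 DAP and 4, 1 and 0 counts at 7 DAP, with a log2 fold change of 3.69 (SE 0.57, edgeR adjusted p = 1.24e-09). ZemaCr119, which the reference table lists as a plastid ribosomal RNA, had 13, 21 and 21 counts against 3, 2 and 0 counts in the same order of stages (log2 fold change 3.66, SE 0.57). Every mutant library at 14 DAP exceeded every one at 7 DAP for these 3 genes, as was so for 40.5% of all genes tested. Without replicate 1 of the mutant at 7 DAP, the stage change of ndhA was 5.14 and that of ZemaCr119 was 4.27.

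By function, the plastid genes of the mutant ranged from low to nearly undetected. The 32 genes of plastid gene expression, matK among them, summed to 597 counts in mutant seeds at 14 DAP and 47 counts in mutant seeds at 7 DAP. The 47 plastid ribosomal and transfer RNA genes summed to 144 counts at 14 DAP and 10 counts at 7 DAP, and the 12 NAD(P)H dehydrogenase genes to 65 and 5 counts. The 22 photosystem genes, which serve the light reactions, had 25 counts at 14 DAP and 6 counts at 7 DAP, with 0 members past the filter. The 15 genes of Rubisco, the cytochrome complex and the ATP synthase had 11 counts at 14 DAP and 0 counts at 7 DAP in the mutant, and 0 members were tested. Reads of organelle genes can be shared with copies of organelle DNA in the nuclear genome, and the counting rule for such reads is not stated in the labels or processing notes.

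As a share of each library, organelle transcripts stayed a very small part. They made up 0.0234% ± 0.000523 of counts in mutant seeds at 14 DAP and 0.0157% ± 0.000329 in mutant seeds at 7 DAP (SD, n = 3 per stage; exact two-sided permutation p = 0.1, the lowest possible). Without rrn26 and rrn18, the organelle genes had 637 ± 68.8 counts per library at 14 DAP and 196 ± 22.4 counts per library at 7 DAP in the mutant. The 154 microRNA precursors, whose hairpins are cut into microRNAs, had 0 counts in all 12 libraries, so nothing can be said of them at either stage. Other non-coding identifiers, which carried no symbols, had 108 tested members, of which 26 were higher, 22 lower and 60 not called in the mutant, where 40.3% of all genes tested were higher and 40.5% lower. As a class they had 382 ± 66.5 scaled CPM in mutant seeds at 14 DAP and 569 ± 160 scaled CPM in mutant seeds at 7 DAP (SD, n = 3 per stage; exact two-sided permutation p = 0.2), and libraries of the stages overlapped. Without the composition factors the class had 354 ± 61.9 CPM at 14 DAP and 645 ± 182 CPM at 7 DAP (SD, n = 3 per stage; exact two-sided permutation p = 0.1, the lowest possible), and the stages did not overlap.

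The next question was whether wild-type seeds showed the same organelle changes. Wild-type changes, and the difference between the genotypes, come from a fit of all 12 libraries, and that difference was tested as an interaction. In wild type 17 organelle genes were tested, of which 4 were higher at 14 DAP (rrn26, matK, ndhA and ZemaCr119) and 0 lower, where 40.8% of all genes tested were higher and 39.8% lower. The stage change was larger in the mutant for 7 organelle genes and smaller for 0, where over all 25344 genes tested 22.8% were called with a higher and 24% with a lower change in the mutant. The same filter as above helped to choose these genes, so this split supports nothing by itself.

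Scaled counts of the mitochondrial ribosomal RNAs changed more in mutant than in wild-type seeds. rrn18 averaged 20.1 ± 0.744 CPM in wild type at 14 DAP and 21.7 ± 2.48 CPM in wild type at 7 DAP (SD, n = 3 each; log2 fold change −0.11, edgeR adjusted p = 0.168). Its log2 change in the mutant exceeded that in wild type by 0.88 (SE 0.10, edgeR adjusted p = 6.05e-13). rrn26 averaged 215 ± 5.17 CPM at 14 DAP and 168 ± 2.60 CPM at 7 DAP in wild type, a log2 fold change of 0.36. The mutant's change in rrn26 was larger by 0.37 (SE 0.04, edgeR adjusted p = 3.71e-12). The mutant's mean of rrn26 lay below that of wild type at both stages, whereas its mean of rrn18 lay above that of wild type at 14 DAP and below it at 7 DAP.

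Respiratory transcripts and reading frames that were higher at 14 DAP in mutant seeds were not called in wild-type seeds. The 20 respiratory genes had 121 counts in wild type at 14 DAP and 164 counts in wild type at 7 DAP, summed over 3 libraries, against the mutant's 375 counts at 14 DAP and 168 counts at 7 DAP. cox3 had 8, 4 and 4 counts in wild-type libraries at 14 DAP and 7, 15 and 10 counts at 7 DAP, and the mutant's stage change exceeded that of wild type by 3.11 (SE 0.64, edgeR adjusted p = 1.85e-05). The same difference was 1.78 for cox1 (SE 0.61, edgeR adjusted p = 0.0116), a call lost without replicate 3 of the mutant at 7 DAP (1.39). nad4 differed by 1.82 (SE 0.74, edgeR adjusted p = 0.0356), and its call was lost with no filter, with DESeq2 and without any 1 of 8 of the 12 libraries, with values of 1.41 to 2.93 over the 12. For the reading frame orf147-b the mutant's change was larger by 3.34 (SE 0.85, edgeR adjusted p = 5.53e-04), and by 4.15 without replicate 3 of wild type at 14 DAP. For orf105-c it was larger by 1.88 (SE 0.52, edgeR adjusted p = 0.00149), a call lost without replicate 1 of wild type at 7 DAP (1.40). For rps12, atp4, orf140-b and orf101-a the difference was not called, at 0.85, 0.58, 1.99 and 0.64 on the log2 scale.

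**Figure D2:**
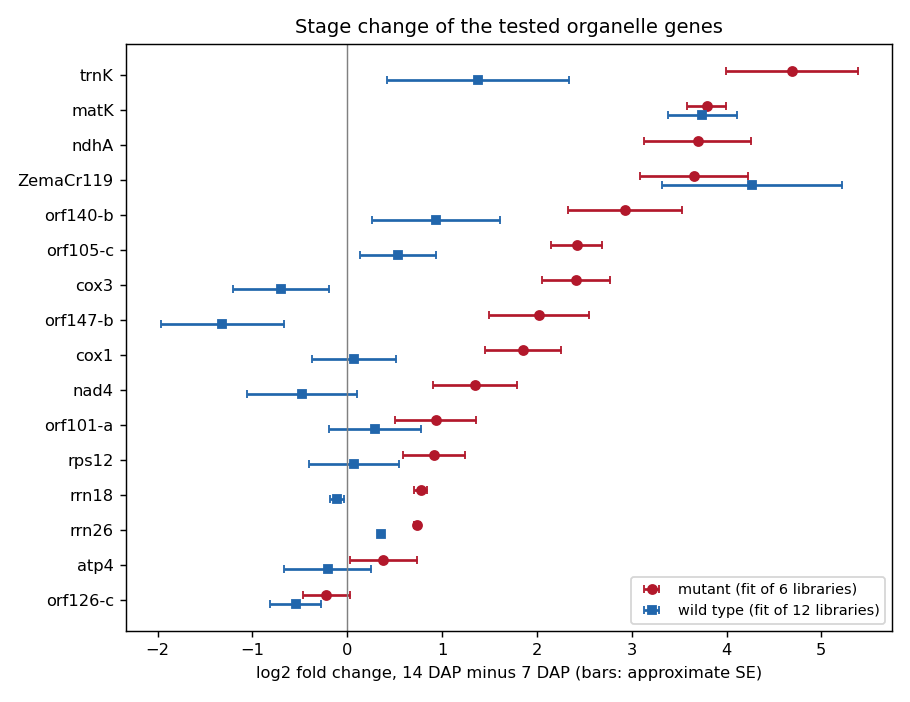
Log2 fold change of 14 DAP over 7 DAP (horizontal axis) of the tested organelle genes in mutant and in wild-type seeds, with approximate standard errors as bars. cox3 is at 2.41 in the mutant and −0.70 in wild type, whereas matK is at 3.79 and 3.75; ndhA has no wild-type point because its 3 wild-type libraries at 7 DAP held 0 counts.

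Plastid transcripts in sum, in contrast, were higher at 14 DAP in both genotypes. Wild-type libraries held 102, 72 and 73 plastid counts at 14 DAP and 7, 5 and 11 at 7 DAP, or 1.86 ± 0.280 and 0.174 ± 0.0645 per 100 mitochondrial counts (SD, n = 3 each). The log2 fold change of matK in wild type was 3.75, and the mutant's differed from it by 0.04, which was not called (edgeR adjusted p = 1.0). In wild type the rise of trnK was itself not called (log2 fold change 1.38, edgeR adjusted p = 0.179). The differences for trnK, ndhA and ZemaCr119 were 3.31, −2.20 and −0.62 on the log2 scale. They were not called either, with edgeR adjusted p-values of 0.0659, 0.229 and 0.677. These counts leave room for sizeable differences, with wild-type sums at 7 DAP of 4 counts for trnK, 0 counts for ndhA and 1 count for ZemaCr119. The levels of matK were 9.11 ± 0.728 CPM in mutant and 2.28 ± 0.607 CPM in wild-type seeds at 14 DAP, and they were 0.657 ± 0.310 CPM in mutant and 0.164 ± 0.128 CPM in wild-type seeds at 7 DAP (SD, n = 3 each).

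The next question was how many nuclear transcripts changed, by how much and in which direction. In mutant seeds 9768 genes were higher at 14 DAP and 9806 were lower, together 80.7% of the 24241 tested, and 4667 were not called. Of these, 9728 higher and 9784 lower ones were nuclear gene models. Scaled by library totals alone, 7030 were higher and 12939 lower, and 2718 and 5750 were so beyond 2-fold, so the even split depended on the composition factor. Most changes were modest, and the median size of a called log2 change was 0.81. There were 3790 genes higher (15.6%) and 4086 lower (16.9%) by more than 2-fold. Large changes were more often rises, with 789 genes higher (3.25%) and 490 lower (2.02%) beyond 8-fold. Beyond 128-fold 151 were higher (0.623%) and 24 lower (0.099%). Scaled by library totals alone, the numbers were 685 higher and 646 lower beyond 8-fold and 140 higher and 32 lower beyond 128-fold.

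**Figure D3:**
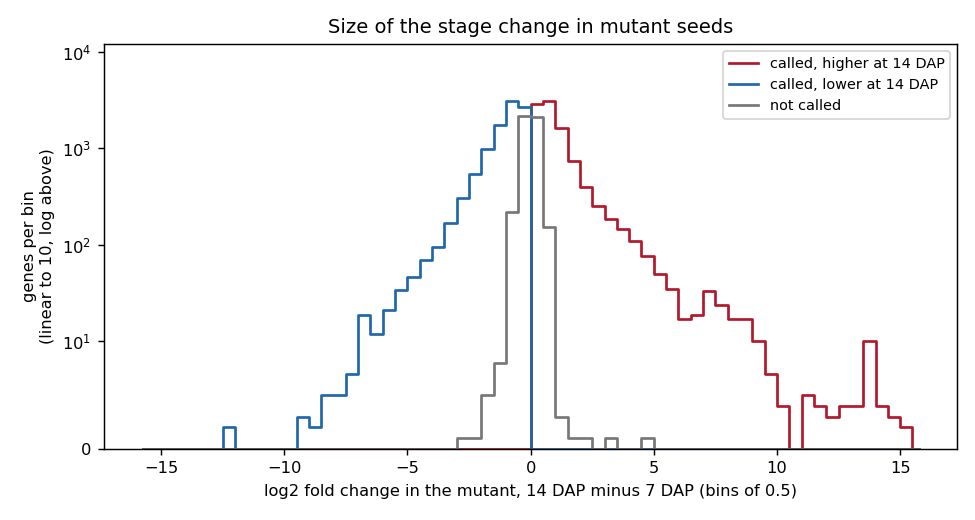
Number of genes (vertical axis, linear up to 10 and logarithmic above) by log2 fold change of 14 DAP over 7 DAP in mutant seeds (horizontal axis), for genes called higher, called lower and not called. The called rises reach further than the called falls, with 151 genes beyond 128-fold on the right and 24 on the left.

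Genes were also ranked by mean abundance in 4 groups of equal size. In the most abundant group of 6061 genes, 136 were higher and 46 lower beyond 8-fold at 14 DAP in the mutant, or 124 and 60 with library totals only. In the least abundant group of 6060 genes 420 were higher and 292 lower, and in the groups between them 149 and 84 genes were higher and 97 and 55 lower. The excess of large rises in these 3 groups turned with library totals only, where 366, 128 and 67 were higher and 369, 137 and 80 lower. In wild type, in the fit of 12 libraries, 931 genes were higher (3.67%) and 620 lower (2.45%) beyond 8-fold at 14 DAP, and 143 were higher (0.564%) and 42 lower (0.166%) beyond 128-fold.

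The nuclear identifiers with the largest changes were silent or nearly silent at one stage and abundant at the other. Zm00001d049476 had 5560, 4012 and 4684 counts in the mutant libraries at 14 DAP and 0 counts in each of those at 7 DAP, at least 1988-fold higher at 14 DAP against a floor of 3 counts per library. The call (edgeR adjusted p = 0.0066) was lost without replicate 3 of the mutant at 14 DAP (edgeR adjusted p = 0.0645). It was kept under the other alternatives, DESeq2 among them (DESeq2 adjusted p = 7.28e-34). Zm00001d048851 averaged 2337 ± 29.0 CPM in mutant seeds at 14 DAP and 0.0630 ± 0.0549 CPM in mutant seeds at 7 DAP, where it had 4 counts in all (SD, n = 3 each). Its fitted log2 fold change of 15.09 was 14.50 without replicate 1 of the mutant at 7 DAP. Zm00001d045861 was the mirror image, at 0.386 ± 0.168 CPM in mutant seeds at 14 DAP and 2262 ± 14.1 CPM in mutant seeds at 7 DAP (SD, n = 3 each). This was 5717-fold lower (95% counting interval 3740 to 9236). Zm00001d045792 averaged 0.232 ± 0.0823 CPM at 14 DAP and 1117 ± 12.3 CPM at 7 DAP in the mutant, 4936-fold lower (95% counting interval 2826 to 9553). All 4 moved the same way in wild type, and the fall of Zm00001d045861 was larger in the mutant by 1.39 on the log2 scale (difference −1.39, SE 0.28, edgeR adjusted p = 4.33e-04). That difference rests on few counts at 14 DAP, 21 in the mutant and 46 in wild type over 3 libraries each. It was not followed under other settings. What these 4 identifiers encode is not stated in the tables.

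Genes that were off at one stage were rare. With 0 counts in the 3 mutant libraries at 7 DAP, 55 nuclear identifiers reached a mean of at least 1 CPM at 14 DAP, 6 of them at least 10 CPM and 2 at least 100 CPM. Of these 55, 31 also had 0 counts in wild type at 7 DAP and 46 reached 1 CPM in wild type at 14 DAP. In the opposite direction 13 identifiers had 0 counts in the mutant at 14 DAP and at least 1 CPM at 7 DAP, with 0 of them at 10 CPM or more. In wild type 8 of these 13 also had 0 counts at 14 DAP.

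Mutant libraries became more concentrated in few transcripts at 14 DAP. The 100 most abundant transcripts of a library held 23.0% ± 0.0875 of counts at 14 DAP and 12.9% ± 0.0259 at 7 DAP, and the single most abundant one held 1.99% ± 0.0130 at 14 DAP and 0.871% ± 0.00710 at 7 DAP (SD, n = 3 each). It took 1311 ± 5.13 genes to make up 50% of counts at 14 DAP and 2061 ± 3.06 genes at 7 DAP (SD, n = 3 per stage; exact two-sided permutation p = 0.1, the lowest possible). Genes above 1000 CPM, here scaled by library totals alone, numbered 77.3 ± 0.577 per library at 14 DAP and 41.3 ± 1.53 at 7 DAP. The stages were fully separated on each of these measures. Genes at or above 1 CPM, by the same scaling, nevertheless numbered 21622 ± 9.54 at 14 DAP and 22162 ± 29.5 at 7 DAP (SD, n = 3 per stage). Composition factors, which averaged 0.929 at 14 DAP and 1.13 at 7 DAP in the mutant, were not applied to these thresholds. The order of the stages at 1 CPM may therefore depend on the scaling, which was not tested. Genes with at least 1 count numbered 29544 ± 239 at 14 DAP and 29256 ± 160 at 7 DAP (SD, n = 3 per stage; exact two-sided permutation p = 0.3). In wild type the number of genes for 50% of counts was 1199 ± 12.2 at 14 DAP and 2043 ± 10.8 at 7 DAP.

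**Figure D4:**
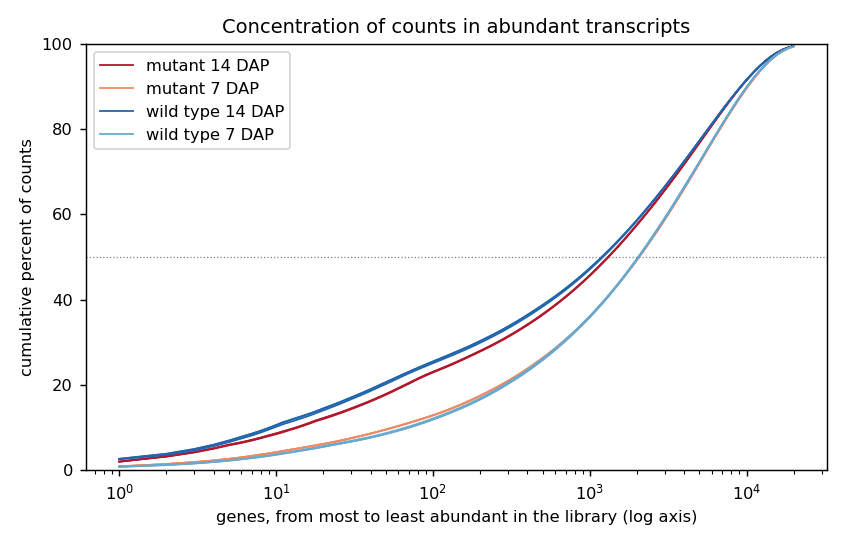
Cumulative share of counts in percent (vertical axis) against the number of most abundant genes (horizontal axis, log scale) for the 12 libraries, each line 1 library and each colour 1 of the 4 groups. The 14 DAP lines lie above the 7 DAP lines, and the mutant reaches 50% with 1311 genes at 14 DAP and with 2061 genes at 7 DAP.

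The 20 most abundant at 14 DAP in the mutant were all nuclear, and they held 12.14%, 12.22% and 12.01% of counts in the 14 DAP libraries against 1.05%, 1.08% and 1.05% in the 7 DAP libraries. As they were chosen for their level at 14 DAP, these values are a description. Of the 20, 16 were higher by more than 8-fold, 11 were below 10 CPM at 7 DAP, and 2 were also among the 20 most abundant at 7 DAP. Of the 100 most abundant at 14 DAP, 44 were higher by more than 8-fold, 30 were below 10 CPM at 7 DAP and 42 were also among the 100 most abundant at 7 DAP. The 20 that dominated at 7 DAP were less changed, with 17 lower, 3 higher and 5 lower by more than 8-fold at 14 DAP. They held 3.24%, 3.22% and 3.16% of counts at 14 DAP, against 6.14%, 6.13% and 6.14% at 7 DAP. Of the mutant's 100 most abundant transcripts 93 were shared with wild type at 14 DAP and 74 at 7 DAP.

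Mutant and wild-type seeds shared the direction of most stage changes but often not the size. These comparisons have no library in common. In the fit of 12 libraries 8256 genes were higher at 14 DAP in both genotypes (39.3% of all genes tested were higher in the mutant in this fit and 39.6% lower), 83% of the mutant's list and 79.9% of the wild-type list, and 7971 were lower in both, 79.5% of the mutant's list and 79.1% of the wild-type list. Another 1148 genes were called in opposite directions, 87 of them beyond 2-fold in both genotypes. The interaction was called for 11873 genes, 46.8% of those tested, with a higher value in the mutant for 5784 and a lower one for 6089. With library totals only the balance was 6320 higher and 5657 lower. A difference beyond 2-fold was called for 2827 genes, 4.76% of those tested in the higher and 6.39% in the lower direction. Of the 16227 genes with the same direction in both genotypes, 7261 had a called difference, 3260 with the larger change in the mutant and 4001 with the smaller.

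These differences were also counted by the size of the average stage change over both genotypes. Among 3242 genes higher by 2 to 8-fold at 14 DAP, the mutant's change was called larger for 18.1% and smaller for 28.1%, and the median log2 change was 1.42 in the mutant and 1.55 in wild type. Among 525 genes lower by more than 8-fold, the change was called less negative in the mutant for 21% and more negative for 13%, with medians of −3.88 in the mutant and −4.13 in wild type. Both classes kept this order with library totals only, with 420 called higher and 600 lower among 2253 genes of the first class and 150 higher and 98 lower among 674 of the second. Among 885 genes higher by more than 8-fold the shares were near even, at 15.4% and 16%, and medians were 4.29 in the mutant and 4.22 in wild type. With library totals only this last class had 126 called higher and 106 lower.

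**Figure D5:**
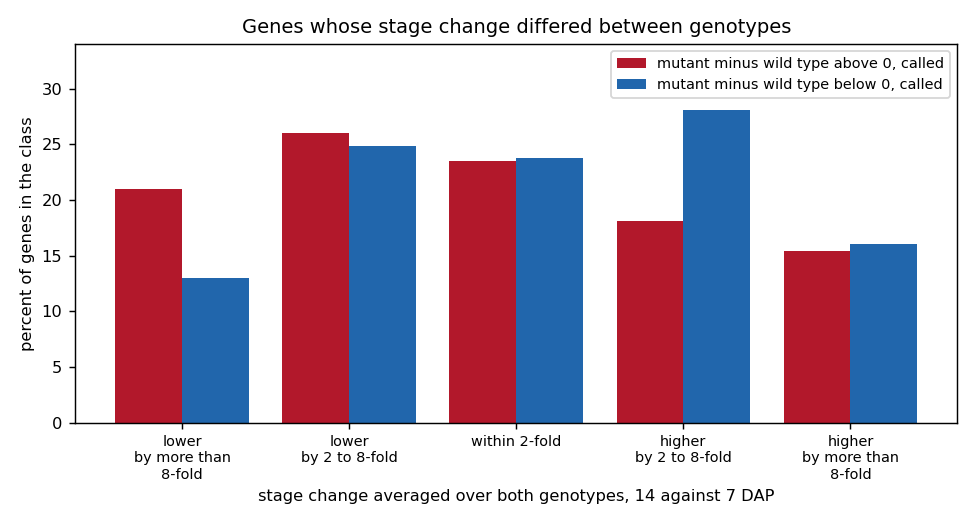
Percent of genes (vertical axis) whose stage change was called higher or lower in mutant than in wild-type seeds, by the average stage change of both genotypes (horizontal axis, 5 classes). Among genes higher by 2 to 8-fold at 14 DAP, 18.1% were called higher in the mutant and 28.1% lower.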

How the data were processed

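The authors deposited read counts, whole numbers per gene with no normalization, in a table for each stage, and the tables were joined by gene identifier. The submitters' processing notes name HISAT2 2.2.1, Trimmomatic 0.39, StringTie 1.3.6, featureCounts 1.6.4 and DESeq2, with the build B73 RefGen_v4. Per the labels, the NEBNext Ultra II RNA kit was applied to DNase-treated total RNA. Strand, annotation release and the treatment of multi-mapping reads are not stated there, so overlapping genes and near-identical copies are uncertain.

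The stage effect in the mutant was tested with edgeR 4.0.16 in R 4.3.3, by the quasi-likelihood test (TMM, filterByExpr by stage, robust) on 6 libraries. Wild-type values and the interaction came from a fit of 12 libraries. The threshold was an adjusted p of 0.05 (Benjamini-Hochberg, over all genes tested). SEs are approximate (absolute log2 fold change over the square root of F). Gene values are CPM with TMM factors from the fit of 12 libraries. Shares, and the numbers of genes per library at or above 1 CPM and above 1000 CPM, use unscaled totals. Floors of 3 counts per library and 95% Poisson intervals cover counting error only. Replicates differed by more than sampling noise, so none were merged. The fits were tested on simulated data in which 200 genes were changed. The stage test recovered 46% of 1.2-fold and 94.1% of 2-fold changes. The interaction test recovered 28.9% and 69.2% in the same order. With so few genes changed, the simulation cannot show how the scaling performs where most genes differ.

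Symbols came from RefSeq's table for Zm-B73-REFERENCE-NAM-5.0, which named 365 organelle identifiers, 153 of 154 microRNA precursors and 0 of 44146 nuclear models. None of the 214 members of 17 lists of nuclear symbols could be matched, so these lists were not analysed. The organelle lists were made from symbols once the identifiers were known, and members and lists were chosen with earlier results of these data known. The rule for named genes took described genes with the largest changes, up to 6 per list by abundance, the 5 most abundant, those with the strongest interaction, and 4 nuclear identifiers, 2 that rose and 2 that fell. Alternatives were other scalings (RLE factors, library totals), no filter, a filter at a mean of 1 CPM, DESeq2 1.42.0, a replicate block, and leaving out each library.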

Additional observations from a re-analysis of the deposited data

Results flagged for a closer look

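The stage change differed between mutant and wild-type seeds for 11873 genes in the interaction test of edgeR (adjusted p below 0.05). Among the named genes, the mutant's change was higher for orf147-b by 3.34, for cox3 by 3.11, for orf105-c by 1.88, for nad4 by 1.82, for cox1 by 1.78, for rrn18 by 0.879 and for rrn26 by 0.374 on the log2 scale. For Zm00001d045861 it was lower, at −1.39. The calls of nad4, cox1 and orf105-c were each lost when single libraries were left out.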

How the results depend on the processing

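The counts of genes called in the mutant, 9768 higher and 9806 lower at 14 DAP, stayed within 1.5 times under RLE factors, library totals, other filters, DESeq2 and each left-out library, with 9571 to 9641 higher and 9594 to 9687 lower over the left-out libraries. The count of organelle genes higher at 14 DAP moved with the filter and the tool, with 25 higher with no filter, 22 with DESeq2 and 6 at a mean of at least 1 CPM, against 14, as 118, 54 and 7 were tested in the same order, against 16, and 1 was lower with library totals only, against 0. Over the left-out libraries 12 to 16 were higher. The gap between stages in the share of the most abundant transcripts was 10.1 percentage points for the top 100, against 5.99 for the top 20. That of organelle transcripts was 0.0113 points with TMM scaling and 0.00231 points without rrn18 and rrn26, against 0.00767. Of 373 values of the named genes under an alternative, 0 had a called direction reversed, 24 lost their call and 1 gained one. The direction of other genes was not followed. With the replicate number as a block, 9709 genes were higher and 9744 lower, and the interaction was called higher for 5799 and lower for 6075. Deviations of same-numbered libraries correlated at 0.0184, 0.0506 and 0.00621. Such low values show no pairing over all genes. They cannot tell whether same-numbered libraries share a plant, ear or preparation. Under the block orf101-a lost its call (0.91, edgeR adjusted p = 0.0531). Depth limits the plastid genes, with 12 to 30 counts in all per mutant library at 7 DAP. Why the microRNA precursors had 0 counts was not tested.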

Other observations

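One non-coding identifier, ENSRNA049479918, chosen after its values were seen, varied widely between replicates. It had 27, 1521 and 1446 counts in the mutant libraries at 14 DAP and 894, 4834 and 5215 counts in those at 7 DAP, with replicate 1 far below the others at both stages. Its stage change was not called (log2 fold change −1.61, edgeR adjusted p = 0.241). Without it, the other non-coding class had 329 ± 41.4 scaled CPM at 14 DAP and 398 ± 45.2 scaled CPM at 7 DAP in the mutant (SD, n = 3 per stage; exact two-sided permutation p = 0.2).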
